A study of Mus musculus with 2 samples.

Results

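Glycolysis splits glucose into pyruvate, and in fast skeletal muscle it supplies ATP during short, intense work. Most of its steps can be catalysed by isozymes, enzymes from different genes that carry out one reaction, and each tissue uses its own mix. Side branches lead to fructose 2,6-bisphosphate (which sets the pace of phosphofructokinase), back towards glucose, to glycerol 3-phosphate, to 2,3-bisphosphoglycerate and to lactate. The genes described here are a list of 30 such symbols out of 55536 annotated genes, listed by name with no threshold on level, though with earlier results of these data known: the isozymes of the glycolytic steps and the enzymes of these branches.

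Total RNA-seq libraries were made from the gastrocnemius, a calf muscle, of 2 males of the B6Cast F1 cross (C57BL/6J with CAST/EiJ) that were 25 days old. There was 1 group, with no treatment, and 1 library per animal, made from 300 ng of RNA with ERCC synthetic control RNAs. The labels number the muscles as different males but give both the same donor entry; they were taken as separate animals, and if they were not, the spread is technical. Levels are TPM, a share of all transcripts that allows for their lengths, so different genes can be compared; mean ± SD is over the 2 animals (n = 2). Each library was quantified in 2 ways, called here the first and the second quantification, and values are from the first unless the second is named.

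Depth was 35098487 expected counts in animal 1 and 37428588 in animal 2, and a count of 0 allows up to 0.0855 and 0.0802 CPM (counts scaled to the library's total). The muscle label was checked on marker genes: 10 of 10 fast sarcomere genes were detected (82925 and 77402 summed TPM in animals 1 and 2) and 10 of 10 slow ones (1501 and 2650 TPM). Markers of neurons were below the detection threshold for 8 of 8 genes, with Chat at 0. Detected markers numbered 7 of 7 for fibroblasts (1897 and 1283 TPM), 7 of 7 for endothelium, 5 of 8 measured for red cells, 4 of 8 for Schwann cells and 2 of 8 for fat cells, where Fabp4 held 61.4 of 75.7 TPM in animal 1. Of the macrophage and neutrophil list, 5 of 10 were detected, and the neutrophil markers S100a8, S100a9 and Retnlg had 0 to 2 counts. In such bulk RNA, fewer cells of a type and less RNA per cell cannot be told apart.

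Of the 30 genes, 25 were detected, meaning TPM of 1 or more in both animals. Levels were spread widely: 12 genes had a mean of 100 TPM or more, 13 lay between 1 and 100 TPM, and 5 were below the threshold. The summed level was 21019 TPM in animal 1 and 23442 in animal 2, which was 5.41% and 5.77% of all nuclear protein-coding TPM. The 5 highest genes, Aldoa, Gapdh, Eno3, Pgam2 and Pkm, held 80.4% and 80.9% of that sum. Among the 12 high genes, the order of levels was the same in both animals, and the ranges of Pkm and Ldha were the only neighbouring ranges that overlapped.

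**Figure D1:**
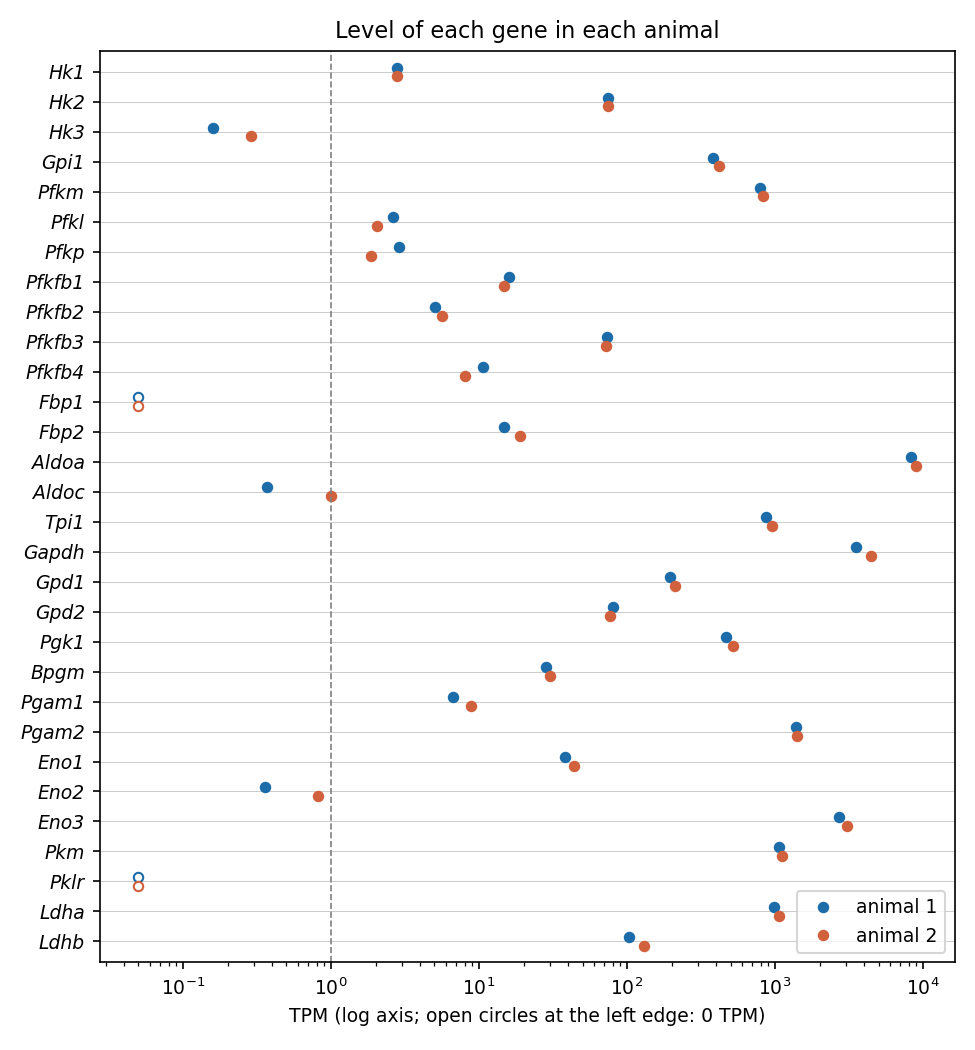
TPM (log axis) of each of the 30 genes in animal 1 and animal 2, in pathway order; the dashed line is the detection threshold of 1 TPM and open circles at the left edge stand for 0 TPM. The 2 animals lie close together for the abundant genes, from Ldhb at 103 TPM to Aldoa at 8931 TPM, and Hk3, Fbp1, Aldoc, Eno2 and Pklr are at or left of the line in at least 1 animal.

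The first steps, which spend ATP, began at a low level. Hexokinase traps glucose in the cell, and its muscle isozyme Hk2 (mm10, chr6:82725025-82774454) stood at 73.91 TPM in animal 1 and 74.91 in animal 2. The widely expressed Hk1 was at 2.79 TPM in each animal. Hk3, an isozyme known from white blood cells, was at 0.16 and 0.29 TPM (9 and 19 counts). Hk2 thus held 96.1% ± 0.0785 of hexokinase TPM, 26.5-fold and 26.8-fold above Hk1. The macrophage and neutrophil list summed to 34.2 and 34.5 TPM, of which Lyz2 held 12.85 and 14.23. The neutrophil markers S100a8, S100a9 and Retnlg were each at 0.13 TPM or less. The part of these cells in the Hk3 level was not tested.

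Glucose-6-phosphate isomerase, Gpi1, was at 378.68 and 415.27 TPM. Phosphofructokinase 1, the main point of control, was almost entirely the muscle subunit Pfkm (chr15:98092589-98132451), at 787.04 and 827.58 TPM. The liver subunit Pfkl had 2.61 and 2.04 TPM, and the platelet subunit Pfkp 2.89 and 1.87. Pfkm held 99.4% ± 0.158 of the family and exceeded Pfkp 272-fold and 443-fold. Summed levels were higher at each of these 3 reactions in turn, and phosphofructokinase was 10.3-fold and 10.7-fold above hexokinase in animals 1 and 2.

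Aldolase splits the six-carbon sugar, and Aldoa (chr7:126795234-126800751) was the most abundant of the 30 genes at 8228.79 and 8931.40 TPM. Aldoc, the brain-enriched isozyme, was at 0.37 and 1.00 TPM (18 and 34 counts), so that Aldoa made up 99.99% of the pair. Triosephosphate isomerase, Tpi1, which interconverts the resulting triose phosphates, was at 864.63 and 955.72 TPM. Aldolase RNA stood 107-fold and 115-fold above hexokinase RNA, the widest gap between any 2 of the 11 glycolytic steps in the first quantification.

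The later steps, which regain ATP, were at intermediate to high levels. Gapdh (chr6:125161715-125166467), which makes NADH, was at 3523.67 and 4416.69 TPM, a mean of 3970.2 ± 631. Phosphoglycerate kinase, Pgk1, was at 463.28 and 516.25 TPM. The enolase genes followed the muscle pattern: Eno3 (chr11:70657202-70662513), the muscle isozyme, had 2701.86 and 3080.16 TPM. The widely expressed Eno1 had 38.14 and 43.92 TPM, and the neuronal Eno2 0.36 and 0.82 TPM (19 and 23 counts). Eno3 held 98.6% ± 0.0190 of enolase TPM, 70.8-fold and 70.1-fold above Eno1. The neuron markers summed to 0.73 and 0.69 TPM over 8 genes.

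Phosphoglycerate mutase showed the same division, and the upstream sequences of its genes are given because the pair differs both in level and in letters. Pgam2 (chr11:5801640-5803733), the muscle isozyme, was at 1373.33 and 1409.89 TPM. Pgam1, the form of most other tissues, was at 6.70 and 8.86 TPM. Below are the 250 bases before each start site from RefSeq (GRCm38.p6, 5′ to 3′ on the gene's strand), with each E-box, CANNTG on either strand, in capitals. E-boxes are the letters bound by the myogenic basic helix-loop-helix factors, among many others.
Pgam2, chr11:5803797-5804046, minus strand: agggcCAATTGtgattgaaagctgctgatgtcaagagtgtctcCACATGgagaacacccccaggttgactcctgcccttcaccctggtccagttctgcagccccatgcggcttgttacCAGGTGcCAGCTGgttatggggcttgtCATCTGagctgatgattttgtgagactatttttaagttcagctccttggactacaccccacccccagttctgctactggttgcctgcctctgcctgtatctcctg
Pgam1, chr19:41911621-41911870, plus strand: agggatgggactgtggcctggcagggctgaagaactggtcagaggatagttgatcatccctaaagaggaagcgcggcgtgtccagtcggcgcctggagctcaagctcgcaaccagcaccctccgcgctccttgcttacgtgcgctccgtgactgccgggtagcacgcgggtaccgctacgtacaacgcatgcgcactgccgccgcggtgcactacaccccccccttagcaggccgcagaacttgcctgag

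The Pgam2 window held 5 E-boxes and the Pgam1 window 0. Of 32851 such windows in the table, 66.2% held at least 1 E-box and 1.15% held 5 or more. The enolase pair did not follow this order, with 1 match for Eno3 and 2 for Eno1. Across the genes of the list, 29 had a window, and Gpd1 had none in the table. The muscle isozymes held an E-box in 8 of 9 windows (Hk2 was the exception) and the remaining genes in 11 of 20. Other motifs scored on the same windows did not all divide this way. The MEF2-type motif was in 0 of 9 muscle windows and 1 of 20 others (Ldhb), beside 3.2% of the table. The TATA motif was in 0 of 9 and 1 of 20 (Eno2), and the GC box in 4 of 9 and 9 of 20. For ACGTG, the core of hypoxia response elements, read on both strands, 8 of 29 windows matched against 16.6% of the table, with 5 matches in the Ldha window and 2 each for Hk2, Pfkm, Fbp2 and Pgk1. Split in the same way, this core was in 4 of 9 muscle windows and 4 of 20 others. All these counts are matches of letters in a short window, not sites of binding. Matches of ACGTG can lie inside an E-box (CACGTG), and each CACGTG was counted as 2 matches, 1 per strand.

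Pyruvate kinase and lactate dehydrogenase close the pathway. Pkm (chr9:59656368-59679375) was at 1063.52 and 1115.57 TPM, while Pklr, the gene of liver and red cells, had 0 counts in both animals. Red-cell markers summed to 587 and 539 TPM, so RNA of that lineage was present in these libraries. Ldha, the subunit typical of fast muscle, was at 980.70 and 1070.55 TPM. Ldhb, typical of heart and oxidative fibres, was at 103.05 and 130.44 TPM. Ldha held 89.8% ± 0.956 of the pair, 9.52-fold and 8.21-fold above Ldhb, and 84.8% in the second quantification. Summed lactate dehydrogenase was nearly level with pyruvate kinase, at 1.02-fold and 1.08-fold.

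Set beside each other, the 11 steps of the pathway did not have equal RNA levels. Hexokinase was lowest at 77.4 ± 0.799 TPM, followed by the isomerase (397 ± 25.9), phosphoglycerate kinase (489.8 ± 37.5) and phosphofructokinase (812 ± 27.5). Aldolase (8580.8 ± 497), Gapdh and enolase (2933 ± 272) were the 3 highest in both animals and both quantifications. The order among the others was also kept by the second quantification, with the exception of phosphofructokinase and Tpi1, which changed places in animal 1. Gapdh and aldolase changed places in both animals.

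The branch genes were lower, and here the muscle isozyme did not always lead. Fructose 2,6-bisphosphate is made and broken down by 4 bifunctional enzymes. Pfkfb1, of which one form is known from muscle, was at 15.82 and 14.67 TPM and held only 14.8% ± 0.326 of the family. Pfkfb3, an inducible form with high kinase activity, was at 73.54 and 72.26 TPM and held 70.9% ± 1.34. Pfkfb4 was at 10.64 and 7.98 TPM and Pfkfb2, the heart form, at 5.08 and 5.61. Pfkfb3 also led in the second quantification, with 66.1%. Non-coding transcripts held 63.8% and 42.4% of Pfkfb3 TPM in animals 1 and 2, and retained-intron models were among the largest of them.

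Fbp2, the muscle fructose 1,6-bisphosphatase, which works against phosphofructokinase, was at 14.81 and 18.88 TPM. The liver gene Fbp1 had 0 counts in both animals, so Fbp2 made up 100% of the pair. For the glycerol 3-phosphate shuttle, which passes cytosolic NADH electrons to mitochondria, the division is by compartment. The cytosolic Gpd1 was at 193.95 and 209.70 TPM and the mitochondrial Gpd2 at 79.84 and 76.91, so that Gpd1 held 72.0% ± 1.65. Non-coding transcripts held 55.1% and 53.3% of Gpd2 TPM in animals 1 and 2, and 45.0% on average in the second quantification. For Gpd1 they held 0.88% on average in the first. Bpgm, which makes 2,3-bisphosphoglycerate and is best known from red cells, was at 28.46 and 30.22 TPM. It was the second gene of the mutase family after Pgam2, which led it 48.3-fold and 46.7-fold.

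In all, the gene listed as the muscle or main form had the highest TPM of its family at 9 of 10 steps compared, in both animals and both quantifications. Among the 9, Gpd1 over Gpd2 is a division by compartment rather than a choice of isozymes. The exception was the Pfkfb family. The share was above 95% at 7 of the 10 steps; lactate dehydrogenase, glycerol 3-phosphate dehydrogenase and Pfkfb lay below.

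**Figure D2:**
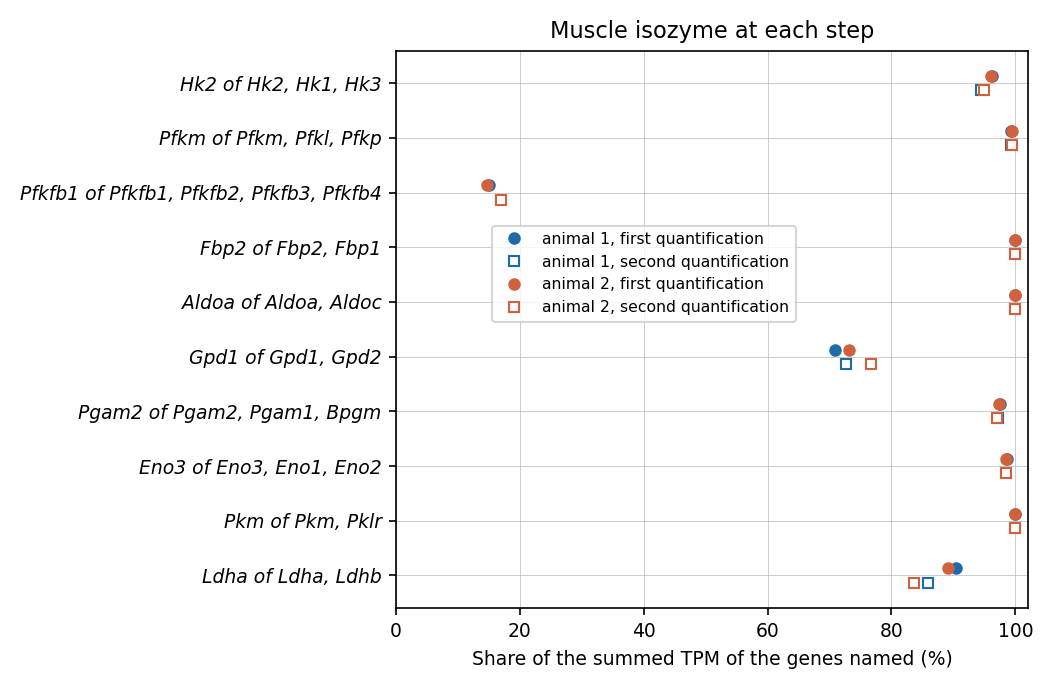
Share (%) of the summed TPM of a family held by its muscle or main gene, for 10 steps; filled circles are the first and open squares the second quantification, coloured by animal. Points sit at 94.4% or more except for Ldha (83.6% to 90.5%), Gpd1 (70.8% to 76.7%) and Pfkfb1 (14.6% to 17.0%).

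Pkm was examined by isoform because alternative splicing gives it 2 enzymes. The M1 form is typical of differentiated muscle, and M2 of embryonic and dividing cells and of many other adult tissues. Both have 11 exons in GENCODE M21 and differ in coding sequence by exon 9. Pkm-202 carries the exon of M1 and Pkm-201 that of M2, each 167 bases long. They are printed 5′ to 3′ (mm10, plus strand) with the 64 differing bases in capitals; the other 103 bases (61.7%) are identical.
Pkm-202 exon 9, chr9:59675029-59675195: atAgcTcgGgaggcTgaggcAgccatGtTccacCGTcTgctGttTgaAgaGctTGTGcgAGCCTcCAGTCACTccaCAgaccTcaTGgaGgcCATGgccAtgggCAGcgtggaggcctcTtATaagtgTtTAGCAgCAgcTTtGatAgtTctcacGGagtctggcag
Pkm-201 exon 9, chr9:59675568-59675734: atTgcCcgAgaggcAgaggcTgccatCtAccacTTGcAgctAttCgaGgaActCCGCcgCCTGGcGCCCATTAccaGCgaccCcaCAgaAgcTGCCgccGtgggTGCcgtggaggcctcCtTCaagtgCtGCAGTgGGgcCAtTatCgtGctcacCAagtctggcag

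The M1 transcript Pkm-202 held 55.93% of Pkm TPM in animal 1 and 53.70% in animal 2, or 54.8% ± 1.58. The M2 transcript Pkm-201 held 42.33% and 44.69%. In the second quantification the M1 share was 45.4% and 43.7% and the M2 share 45.4% and 44.8%, so neither form led in both animals. As a share of these 2 transcripts alone, M1 came to 55.7% ± 1.66 in the first and 49.7% ± 0.439 in the second. The transcripts differ outside exon 9 as well: Pkm-201 is 2432 bases long and Pkm-202 is 2041, with 205 bases more at the start and 186 more at the end of Pkm-201. The shares therefore rest on 391 bases of transcript ends besides the 167 bases of the exon, and reads over the exon alone were not counted here.

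Which transcript led its gene depended on the quantification for much of the list. Of 24 detected genes with more than 1 annotated transcript, 12 had the same leading transcript in both animals and both quantifications. Among these were Gpd1, whose leading transcript held 99.1% ± 0.141 of its TPM, Pgk1 (99.8% ± 0.0354), Pgam1 (95.1% ± 2.22), Tpi1 (88.2% ± 0.523) and Hk2 (80.4% ± 1.91). The most abundant genes were not. Aldoa-203 held 62.5% ± 0.233 of Aldoa in the first quantification and 0.00% to 2 decimals in the second, where Aldoa-201 led with 55.9%. Ldha-202 held 98.8% ± 0.184 and then 34.7%, with Ldha-201 ahead at 55.8%. For Eno3, a transcript of 1454 bases led with 51.3% ± 2.08 in the first and one of 1564 bases with 65.2% in the second. Gapdh stood out in kind: 69.0% ± 1.68 of its TPM was given to Gapdh-208, a non-coding model of 483 bases, and 0% in the second quantification, where the coding Gapdh-207 led with 36.9%.

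**Figure D3:**
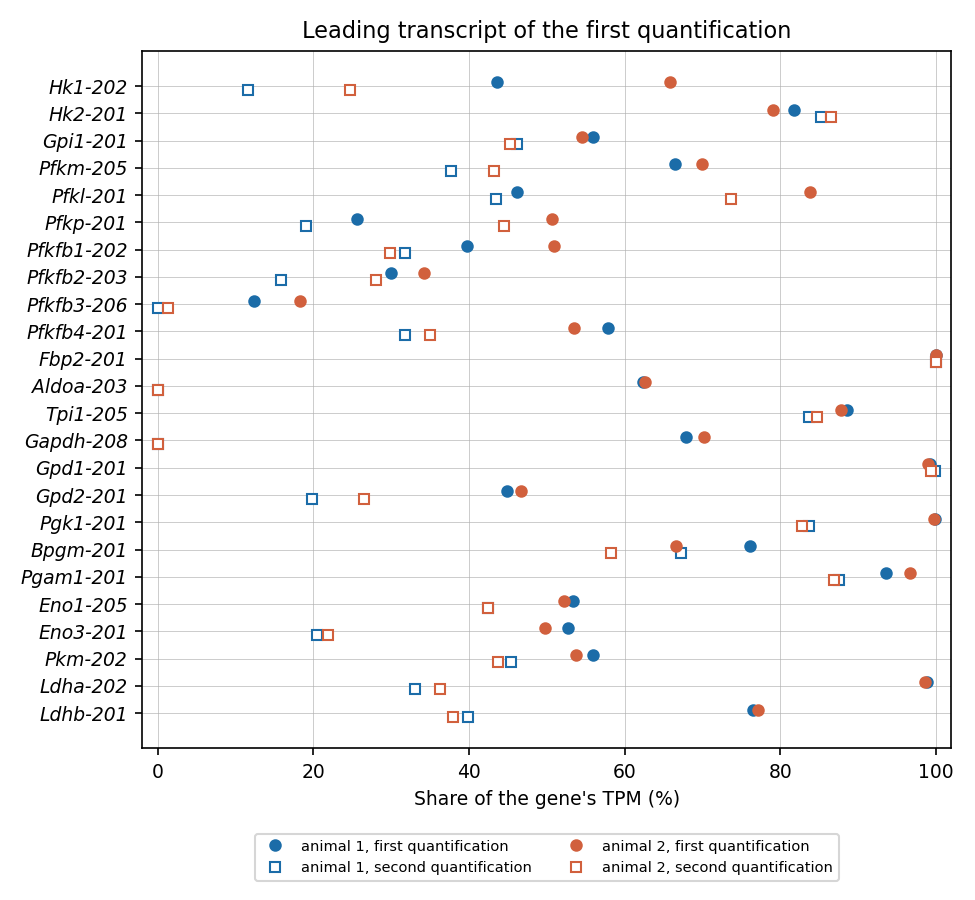
Share (%) of a gene's TPM held by the transcript that led in the first quantification, for the 24 detected genes with more than 1 transcript; filled circles are the first and open squares the second quantification, coloured by animal. The animals lie close together for most abundant genes, while Aldoa-203 and Gapdh-208 fall from over 60% to 0% between quantifications.

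Gapdh, widely used as a reference gene, was also the gene whose level changed most between quantifications. Its TPM was 11787 and 13509 in the second, 3.19 times the first on average, against a median of 1.54 for the 25 detected genes of the list and 1.43 for 9937 detected nuclear protein-coding genes. Only 0.423% of those genes had a higher ratio. The lowest ratio in the list was 1.16, for Gpd2, and the next highest after Gapdh was 2.22, for Ldhb. As a result Aldoa was 2.34-fold and 2.02-fold above Gapdh in the first quantification, but 0.948-fold and 0.927-fold, or below it, in the second.

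Near-identical copies, mostly processed pseudogenes, share reads with some of these genes. At 95% identity or more over at least 200 bases, 9 of the 30 genes had 89 annotated copies, and 74 of these belonged to Gapdh. The Gapdh copies held 5068 and 4478 counts in the first quantification, beside 65138 and 83650 for the gene. In the second they held 66755 and 58504 counts, of which the pseudogene Gm7336 (chr7:51746647-51747878) had 64247 and 56073, beside 121066 and 145120 for Gapdh. Gene and copies together differed 2.47-fold between quantifications. For Eno1, copies held 48.2% and 46.6% of the joint counts in the first quantification, most of them in Eno1b. Adding all copies lowered the Eno3 share of enolase to 97.6%. For Pgk1, the copy Gm5537 had 1627 and 1475 counts in the first quantification and 0 in the second. Levels of Gapdh, Eno1 and, to a lesser degree, Pgk1 and Gpi1 are uncertain by these amounts.

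**Figure D4:**
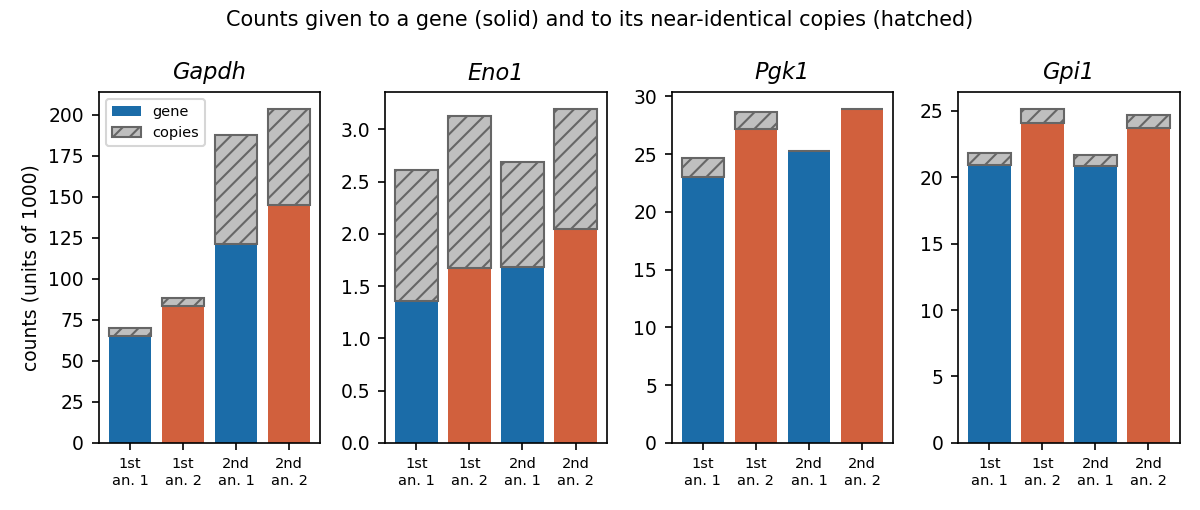
Counts (in units of 1000, linear axes from 0, a separate scale per gene) given to Gapdh, Eno1, Pgk1 and Gpi1 (solid, coloured by animal) and to their near-identical copies (hatched) in the first and second quantification. Gapdh grows from 65138 to 121066 counts in animal 1 while its copies grow from 5068 to 66755.

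The 2 animals were then compared as libraries. With 1 library per animal, differences between animals and differences from handling of the samples cannot be told apart. Scaled counts were compared by an exact conditional binomial test with Benjamini-Hochberg adjustment over all 14754 genes tested. Its error is counting error alone; with 2 animals, an exact test over animals has 0.5 as its smallest two-sided p. Calls needed an adjusted p under 0.05 together with a difference over 2-fold. By this rule 1.78% of all genes tested were called and 0 of the 28 genes of the list that were tested. At an unadjusted p under 0.05 there were 19 of the 28, beside 3710 of all 14754 genes tested. By adjusted p alone 16 of 28 (57.1%) passed, 9 higher and 7 lower in animal 2. Of all genes tested, 15.1% passed by adjusted p alone (8.1% higher and 6.99% lower), and the share grew with level. Among genes with at least 100 TPM, 9 of 12 of the list passed (75.0%), beside 54.6% of nuclear protein-coding genes. Among those with at least 5 TPM, 16 of 22 passed (72.7%), beside 24.3%. These 2 sets were unlike in level: 12 of the 22 had at least 100 TPM, beside 438 of 5967 nuclear protein-coding genes. The median log2 ratio of animal 2 over animal 1 was 0.04 for the 28 genes and 0.01 for all genes tested.

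Among genes passing by adjusted p, the differences were small. Pfkfb4 fell by 0.60 on the log2 scale in animal 2 (95% interval -0.75 to -0.45, adjusted p = 4.08e-14 by the exact binomial test), from 858 to 642 counts. Pgam1 was higher by 0.33 (0.12 to 0.55, adjusted p = 0.0164), Fbp2 by 0.25 (0.09 to 0.41, adjusted p = 0.0208) and Ldhb by 0.25 (0.18 to 0.32, adjusted p = 4.36e-11), all by the same exact test. Gapdh was higher by 0.18 (0.16 to 0.19, adjusted p = 3.82e-118 by the exact binomial test), and by 0.09 in the second quantification. Eno3, Pgk1, Tpi1 and Aldoa were higher by 0.02 to 0.06, and Hk2, Gpd2, Pgam2, Pfkm, Pkm and Bpgm had values of -0.15 to -0.03.

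Some of these directions depended on the measure. Raw TPM ratios were shifted by a median of 0.11 over all genes tested (0.15 in the second quantification), so 5 measures were set beside each other: counts under TMM, under DESeq2 factors and in the second quantification, and TPM ratios in both, less that shift. All 5 come from the same 2 libraries, and TMM and DESeq2 ratios differ by the same small amount for every gene. The measures are therefore not independent of each other. Of the 16 genes, 8 were higher in all 5 (Fbp2, Aldoa, Tpi1, Gapdh, Pgk1, Pgam1, Eno3 and Ldhb) and 5 lower in all 5 (Hk2, Pfkm, Pfkfb4, Gpd2 and Pkm). The other 3 were mixed: Pfkfb3 was higher by 0.28 in scaled counts but at -0.14 by TPM ratio, Bpgm changed sign in the second TPM ratio, and Pgam2 in both measures of the second quantification. In raw TPM, unshifted, Hk2, Pfkm, Pgam2, Pkm and Bpgm were slightly higher in animal 2.

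**Figure D5:**
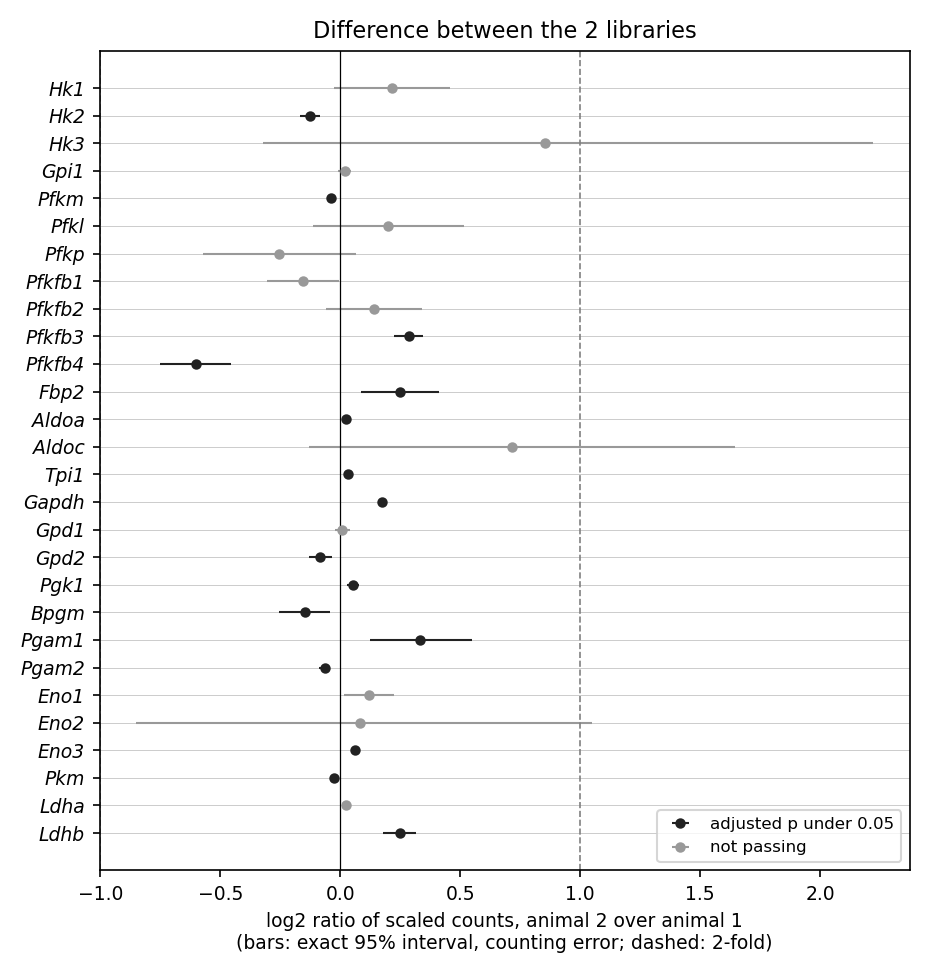
log2 ratio of TMM-scaled counts, animal 2 over animal 1, for the 28 genes tested, with the exact 95% interval for counting error; dark points pass at an adjusted p under 0.05 and dashed lines mark 2-fold. All points lie inside 2-fold, with Pfkfb4 lowest at -0.60 and the thinly counted Hk3 highest at 0.85 with a wide interval.

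Other tissue genes also differed between the libraries. All 10 slow sarcomere genes passed as higher in animal 2 (median log2 ratio 0.75), and all 10 fast ones as lower (median -0.14). For comparison, 24.3% of nuclear protein-coding genes passed in either direction at 5 TPM or more and 54.6% at 100 TPM or more, 13.7% and 27.4% as higher. Of the Schwann cell genes, 6 of 8 passed as higher, and of the fibroblast genes 5 of 7 as lower. Of those tested, 3 of 5 red-cell genes, 2 of 7 fat-cell genes and 1 of 7 macrophage genes passed as lower, and 2 of 7 endothelial genes as higher. Ldhb, the oxidative-fibre subunit, was higher in the same animal as the slow genes. Their part in its difference was not tested.

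Most neighbouring pathways were at lower levels. Of 13 further paralogs of glycolytic enzymes, 4 were detected, and Gapdhs, Pgk2, Eno4 and Ldhc, genes of testis or germ cells, had 0 counts. Eno1b was highest at 21.3 ± 1.36 TPM. In the pentose phosphate pathway 8 of 9 genes were detected, from Taldo1 at 29.7 ± 1.56 TPM to G6pdx, the entry enzyme, at 1.27 ± 0.0141. Serine synthesis had 4 of 5 genes detected (Shmt2, at 9.81 TPM, highest) and the hexosamine branch 5 of 5 (Uap1, at 18.8 TPM, highest). In these 4 lists 0 genes passed by adjusted p in the library comparison, against the 15.1% of all genes. Their median log2 ratios were 0.08, 0.01, -0.13 and -0.08 in the order given, beside 0.01 for all genes tested.

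The malate-aspartate shuttle, the other route for cytosolic NADH electrons, was far more abundant. It had 6 of 7 genes detected, between Slc25a11 at 111 ± 15.2 TPM and Mdh2 at 433 ± 39.9. All 6 passed as higher in animal 2, with log2 ratios of 0.07 to 0.18 and a median of 0.09 over the 7 tested. All 6 exceeded 100 TPM on average, a level at which 27.4% of nuclear protein-coding genes passed as higher. Of 8 genes for glucose 6-phosphatase and clearance of side products, 6 were detected, with Glo1 highest at 54.3 ± 4.93 TPM. G6pc and G6pc2, the glucose 6-phosphatases of liver and islets, had 0 counts, and Tigar passed as higher in animal 2 by 0.38.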

How the data were processed

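Total RNA of 2 gastrocnemius muscles was sequenced, and the authors deposited 3 tables per library. Expected counts, TPM and a percent of each gene's abundance per transcript were deposited in the first gene and transcript tables, which per the file headers have RSEM's columns. These tables also hold posterior mean TPM and its bounds (a score in the authors' scale), per the file headers. A second transcript table with estimated counts and TPM, in kallisto's columns per the file headers, was summed to genes. The labels name mm10, and annotation identifiers matched GENCODE M21. No tool name, version or strand setting is given in the sources used here.

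Expected counts were rounded to whole numbers, scaled by TMM (edgeR 4.0.16) and compared by an exact two-sided conditional binomial test with Benjamini-Hochberg adjustment, over genes with at least 20 counts in sum. A prior count of 0.5 was used for ratios. DESeq2 1.42.0 size factors, TPM ratios, no filter, the second quantification, other TPM thresholds and leaving out each library were alternatives. The step was tested on simulated data with known changes. Copies were found with BLAST 2.17.0 against M21 transcripts. Without molecular identifiers, reads are not independent molecules, so intervals and floors hold for counting error alone.

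All 30 members are named, and other genes come from lists of 124 symbols (123 matched); single values of some list genes are not reported here. Members and lists were chosen with earlier results of these data known. The symbol Aldoa has 2 entries, of which the one with nearly all counts was used. Promoter windows are from RefSeq, taking the one nearest to each gene's start. FPKM was not used.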

Additional observations from a re-analysis of the deposited data

How the results depend on the processing

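The number of list genes called between libraries was 0 with TMM, DESeq2 factors, no filter and the second quantification. It was 2 with the ratio of deposited TPM over 2-fold (Aldoc and Eno2, at 18 and 34 and at 19 and 23 counts), and 16 with adjusted p under 0.05 alone. By adjusted p alone, 16 passed with DESeq2 factors and 14 in the second quantification. With TMM, 1.78% of all genes tested were called and 15.1% passed by adjusted p alone. Shares of all genes were not counted for the other settings, so the counts there have no background of their own. Detected genes numbered 25 to 26 when either library was left out, and 22 at TPM of 5 or more. The muscle or main gene led at 9 steps in each alternative run and at 9 to 9 without either library. The Pkm-202 share was 44.6% in the second quantification, against 54.8%, and ranged from 53.7% to 55.9% without either library; the cause of the shift was not tested. The shares of 10 steps moved by more than their SD at 5 steps with expected counts, 6 with posterior means, 7 with the second quantification and 1 with copies added (an alternative chosen after seeing the data). In the second quantification Pkm-201 led Pkm on the mean, at 45.1%. Depth limits Hk3, Aldoc and Eno2, with 9 to 34 counts, whose intervals reach past 2-fold. No paired analysis was possible because there is 1 group.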

Other observations

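Loci of 15 of the 30 genes overlap an annotated gene on the opposite strand, and whether counting used strand is not given in the sources used here. The neighbours were low beside the abundant genes: Fam57b, which overlaps Aldoa over 3084 bases, had 1133 and 1259 counts against 307044 and 354448. For Pfkp, Hk3 and Pklr the neighbour was the larger, but not for Hk1 or Pfkfb2. Hcn3 had 4 and 7 counts beside 0 in both animals for Pklr. Pitrm1 had 779 and 955 counts beside 171 and 163 for Pfkp, and Unc5a had 293 and 365 beside 9 and 19 for Hk3. A further entry carrying the symbol Aldoa (chr7:126800790-126809108) had 5 and 4 counts.

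The deposited TPM lay above the deposited posterior bounds for 10 of the 30 genes and below them for 6 in each animal. The 10 were abundant genes such as Aldoa, Gapdh and Eno3, the same in both animals. For Hk1, the TPM of 2.79 in each animal lay below the bounds of 3.38 to 5.44 in animal 1 and 3.49 to 5.28 in animal 2. The Hk1 transcripts also differed between animals: the 4278-base transcript that led held 43.65% of Hk1 TPM in animal 1 and 65.85% in animal 2. Pfkl-201 likewise held 46.20% and 83.85% of Pfkl. Both genes had 330 counts or fewer in either library.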
